A study of Mus musculus with 23 samples.

Results

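The genes described here encode the proteins of the cytosolic ribosome. They were chosen by symbol: every probe whose gene symbol began with Rpl or Rps followed by a digit, or was Rplp0, Rplp1, Rplp2 or Rpsa, without Rps6k symbols, Rps27l and pseudogenes marked -ps. The array held 63 such probes for 57 genes, of 34492 probes in all. Of these, 58 probes for 53 genes had a detection p-value under 0.05 on at least 3 of the 23 arrays and were tested, among 18423 probes tested in all. The 5 probes that did not pass belonged to Rpsa, Rpl17, Rpl39l, Rps23rg1 and 1 of the 3 probes for Rps20. No probe carried the symbol Rps6 or Rplp1, and these genes were not analysed here. The symbol rule also takes in Rpl3l, Rpl22l1 and Rpl39l, which are paralogues of ribosomal proteins, and Rps19bp1, Rpl7l1 and Rps23rg1, which carry the prefix but are not core subunits.

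The arrays measured spleen RNA from male mice of 10 weeks of the inbred strains C57BL/6J and DBA/2J, the founders of the BXD recombinant inbred lines. Each strain had a control group, a low dose group given 10 cGy of whole body gamma radiation from a 137Cs source at 9 cGy per hour, and a high dose group given 1 Gy from a 60Co source at 6 Gy per minute, all sampled at 24 h. Each array carried a pool of RNA from 2 mice of the same strain and sex, with 4 pools in every group except DBA/2J low dose, which had 3. Dose, dose rate and source differ together, so they cannot be told apart, and p-values measure the spread between pools.

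The ribosome builds proteins from messenger RNA and consists of a small subunit, which holds the Rps proteins, and a large subunit, which holds the Rpl proteins and the acidic stalk proteins Rplp0, Rplp1 and Rplp2. Ribosomal protein messages are among the most abundant in any cell, and many begin with a run of pyrimidines, the 5′ terminal oligopyrimidine tract, through which growth signals control their translation. Several free ribosomal proteins, of which Rpl5 and Rpl11 are the best known, bind Mdm2 when ribosome assembly is disturbed and so stabilise p53, the factor that also responds to radiation.

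The annotated transcription starts of 8 genes with a called probe are printed as examples of starts with and without a pyrimidine tract, and were not ranked by the size of any difference. Each line runs 5′ to 3′ on the gene's strand, from 10 bases before the RefSeq start over 20 bases from it (build GRCm38.p6), and the capitals mark a pyrimidine tract, here a C followed by at least 4 further C or T that begins within 10 bases of the start.
Rpl38, chr11:114668570-114668599, plus strand: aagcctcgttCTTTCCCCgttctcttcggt
Rps15a, chr7:118116128-118116157, minus strand: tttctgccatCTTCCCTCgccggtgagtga
Rpl14, chr9:120571507-120571536, plus strand: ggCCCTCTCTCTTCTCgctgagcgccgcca
Rpl28, chr7:4792955-4792984, plus strand: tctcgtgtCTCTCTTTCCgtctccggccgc
Rplp2, chr7:141447641-141447670, plus strand: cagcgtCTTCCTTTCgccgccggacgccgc
Rps3, chr7:99483690-99483719, minus strand: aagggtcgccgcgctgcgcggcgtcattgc
Rps3a1, chr3:86142649-86142678, minus strand: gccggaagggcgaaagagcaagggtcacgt
Rps19bp1, chr15:80264287-80264316, minus strand: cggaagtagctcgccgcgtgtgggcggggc
The tract starts at the annotated start itself in Rpl38 and Rps15a, lies across it in Rpl14, Rpl28 and Rplp2, and was not found by these letters in the windows of Rps3, Rps3a1 and Rps19bp1. A RefSeq start window was used for 46 of the 57 genes, and 24 of them (52.2%) held such a tract on the gene's strand, against 9297 of 27025 genes in the whole table (34.4%) and 31 of 69 mitochondrial ribosomal protein genes (44.9%). Of the 17 genes in this set with a probe called in any comparison below, 11 held a tract (64.7%), as did 11 of the 26 tested genes called in none (42.3%). These shares describe annotated starts, and no test was made of them.

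Signals of ribosomal protein probes fell into a bright and a dim class. Values are given as log2 signals after background correction with an offset of 16 and quantile normalization, on which the lowest value is 4.61 and the highest 15.99. The 58 tested probes ran from a mean signal of 160 for Rpl4, a large subunit protein, to 58987 for Rpl41, the smallest protein of the large subunit. Of these, 41 had a mean log2 signal of 12 or more and 17 lay below 12. Rpl22 at 12.02 and Rpl36 at 12.29 were the nearest on the bright side of that line, and Rpl38 at 10.30 was the nearest on the dim side. Levels of different probes depend on each probe's binding, so the order says nothing of which message was more abundant.

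The 17 dim probes were those for Rpl3l, Rpl4, Rpl7l1, Rpl14, Rpl21, Rpl22l1, Rpl29, Rpl36al, Rpl38, Rplp0, Rplp2, Rps13, Rps15a, Rps19, Rps19bp1 and Rps24 and the dimmer of 2 for Rpl28. Of the bright probes, 16 averaged a linear signal above 40000, while the highest signal on each array lay between 59984 and 68575. The probes' sequences were not used here, so whether a probe also binds near-identical copies of its gene was not tested. Detection p-values were 0 on all 23 arrays for 47 of the 63 probes. Rpl37 was a bright exception: its signal was 15276 to 20411, yet its deposited detection p-value was under 0.05 on 17 arrays only.

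Within a group, pools agreed more closely for ribosomal protein probes than for the array as a whole. The median within-group SD was 0.15 log2 over the 58 probes and 0.23 over all 18423. Among probes with a mean of 12 or more the values were 0.13 for ribosomal proteins and 0.19 for all 1119 probes of that brightness. Within that class the probes were not matched by signal level, and the part of signal level in the smaller spread was not tested. The steadiest probe was the brighter of 2 for Rps9, a small subunit protein, at 0.06, and the most variable was Rpl36al, a paralogue of Rpl36a, at 0.49. The median log2 signal over the 58 probes lay between 14.22 and 14.56 in the 23 pools.

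Several pools stood apart from the rest in other transcripts. DBA/2J low dose pools 1 and 3 had median correlations of 0.93 with the other arrays, against at least 0.95 for every other pool. C57BL/6J control pool 1 and high dose pool 1 carried pancreatic enzyme transcripts at mean log2 signals of 13.1 and 13.4, against 5.55 to 6.79 elsewhere. Cell type markers also moved between groups: the mean log2 signal of erythroid markers was 11.5 to 12.4 in C57BL/6J controls, 8.83 to 10.95 after the low dose and 7.70 to 8.21 after the high dose. In DBA/2J it was 12.2 to 13.0, 11.8 to 13.5 and 10.3 to 11.4 in the same order. Granulocyte markers lay between 8.52 and 10.8 in DBA/2J controls and between 12.1 and 13.0 in DBA/2J low dose pools. Markers of B cells and T cells, the main cell types of the spleen, were present in every pool, at mean log2 signals of 9.38 to 11.2 and 8.10 to 10.3. In whole spleen RNA, fewer cells of a type and less RNA per cell cannot be told apart.

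**Figure D1:**
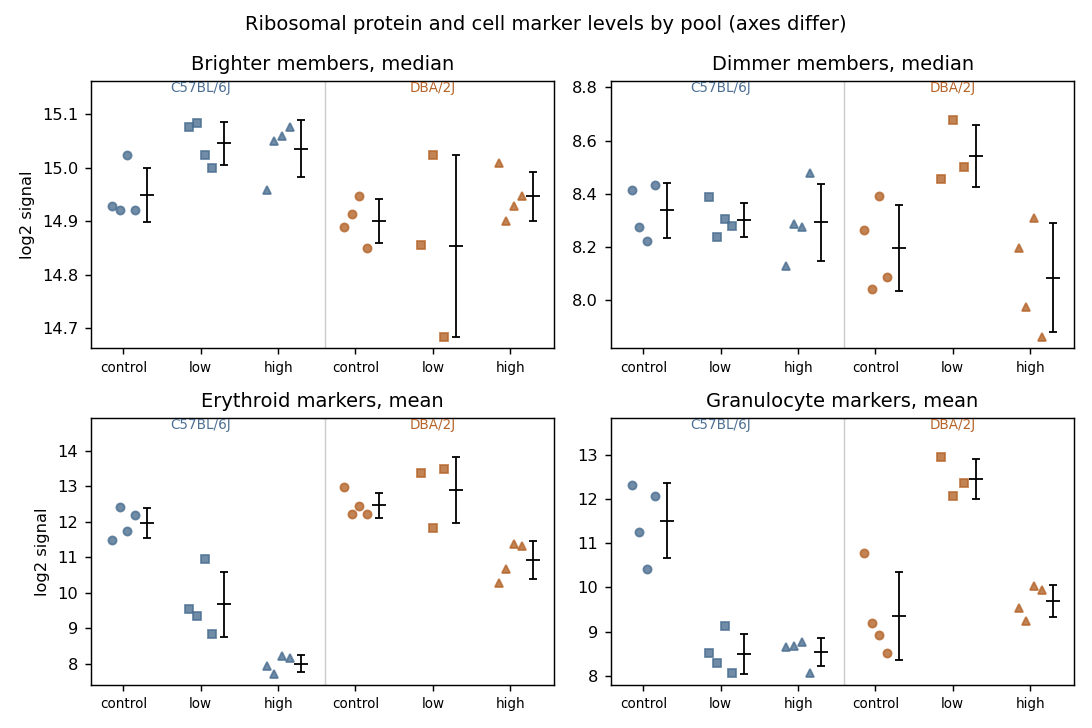
Each panel shows a log2 signal in each of the 23 pools by group: the median over the 41 bright ribosomal protein probes, the median over the 17 dim ones, and the mean over erythroid and over granulocyte markers. The bright median lies between 14.7 and 15.1 in all pools, while the marker means span several log2 units.

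The high dose left nearly all ribosomal protein messages within the spread of the pools in both strains. In C57BL/6J, 1 of 58 probes fell and 0 rose after 1 Gy (limma, Benjamini-Hochberg adjusted p under 0.05), where 4.45% of all tested probes fell and 3.34% rose. In DBA/2J 0 of 58 changed in either direction, where 1.08% of all probes fell and 0.510% rose. At an unadjusted p under 0.05 there were 1 higher and 3 lower in C57BL/6J, where 2303 of all 18423 probes were higher and 1651 lower. In DBA/2J there were 0 higher and 2 lower at that threshold, where 1304 of all probes were higher and 1144 lower. The median log2 difference over the 58 probes was 0.05 in C57BL/6J, equal to the median of all probes at this rounding, and -0.002 in DBA/2J against 0.02 for all probes.

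The probe that passed was that for Rplp2, an acidic protein of the ribosomal stalk that recruits elongation factors. Its log2 signals in C57BL/6J were 7.06, 7.48, 6.84 and 7.13 in the controls and 6.70, 6.55, 6.77 and 6.31 after the high dose. Every high dose pool lay below every control pool, and Rplp2 was 1.46-fold lower (log2 difference -0.54 ± 0.16 SE, limma adjusted p = 0.0431). In DBA/2J it measured 7.44, 7.32, 7.30 and 7.18 in controls and 7.18, 6.79, 7.08 and 7.24 after the high dose, so the groups overlapped, and the difference of -0.24 did not pass (adjusted p = 0.596). The call in C57BL/6J was lost when the background was estimated from all rows of the table (-0.06, adjusted p = 0.135) or when the authors' own log2 values were used (-0.13, adjusted p = 0.105). It was also lost without the pools that carried pancreatic transcripts (-0.60, adjusted p = 0.0841), and in 13 of the 23 fits that left out 1 pool.

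Other members at the edges of the C57BL/6J high dose comparison did not pass. Rpl38, a large subunit protein needed in mice for translation of homeobox messages, measured 10.06, 10.01, 10.33 and 10.61 in controls and 9.58, 9.60, 9.78 and 9.92 after the high dose. These pools did not overlap, with a difference of -0.53 ± 0.17 and an adjusted p of 0.0663. The brighter probe for Rpl10a, a large subunit protein, was 0.35 higher (adjusted p = 0.0765) with no overlap between the groups, and Rpl22l1 was 0.38 higher (adjusted p = 0.347). In DBA/2J the members farthest from 0 were the dim Rpl28 probe at -0.38 (adjusted p = 0.264), Rpl13a at -0.33 (0.132), Rpl3l at 0.33 (0.728) and Rps19 at 0.14 (0.787).

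The Mdm2-binding members showed no called change at the high dose. Rpl11 measured 15.10, 15.32, 15.43 and 15.33 in C57BL/6J controls and 15.39, 15.23, 15.47 and 15.37 after the high dose, a difference of 0.07 with a 95% interval of -0.13 to 0.27. In DBA/2J its difference was 0.12, with an interval of -0.08 to 0.32. The 2 probes for Rpl5 differed by 0.10 and 0.14 in C57BL/6J and by -0.10 and -0.07 in DBA/2J. Rpl23, which also binds Mdm2, differed by 0.11 and -0.04, and Rpl26, which binds p53 messenger RNA, by 0.05 and -0.08, in C57BL/6J and DBA/2J respectively. No probe for these 4 genes was called in any of the 9 comparisons.

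The intervals of the high dose differences bound the change in probe signal. How far the signal follows the amount of message near the top of the arrays' range, where 16 of the 41 bright probes lay, was not tested. For the 41 bright probes the 95% interval of the difference lay wholly between -0.5 and 0.5 log2 in 37 probes in C57BL/6J and 38 in DBA/2J, and between -1 and 1 in all 41 in both strains. For the 17 dim probes it lay between -0.5 and 0.5 in 9 in each strain. Differences smaller than 0.25 log2 made up 89.7% of ribosomal protein probes in C57BL/6J and 91.4% in DBA/2J, against 64.9% and 73.8% of all probes. Signs leaned one way in C57BL/6J, where 36 of 41 bright members were above 0 while 38.2% of all probes of that brightness were below it. The bright median per pool in C57BL/6J was 14.93, 14.92, 15.02 and 14.92 in controls. After the high dose it was 14.96, 15.05, 15.06 and 15.08, with overlap. In DBA/2J 23 of 41 were above 0. In the same pools p53 targets rose: 7 of 13 probes of a p53 list rose in C57BL/6J and 3 of 13 in DBA/2J, among them Cdkn1a, the cell cycle inhibitor p21, by 2.19 and 1.36 log2.

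**Figure D2:**
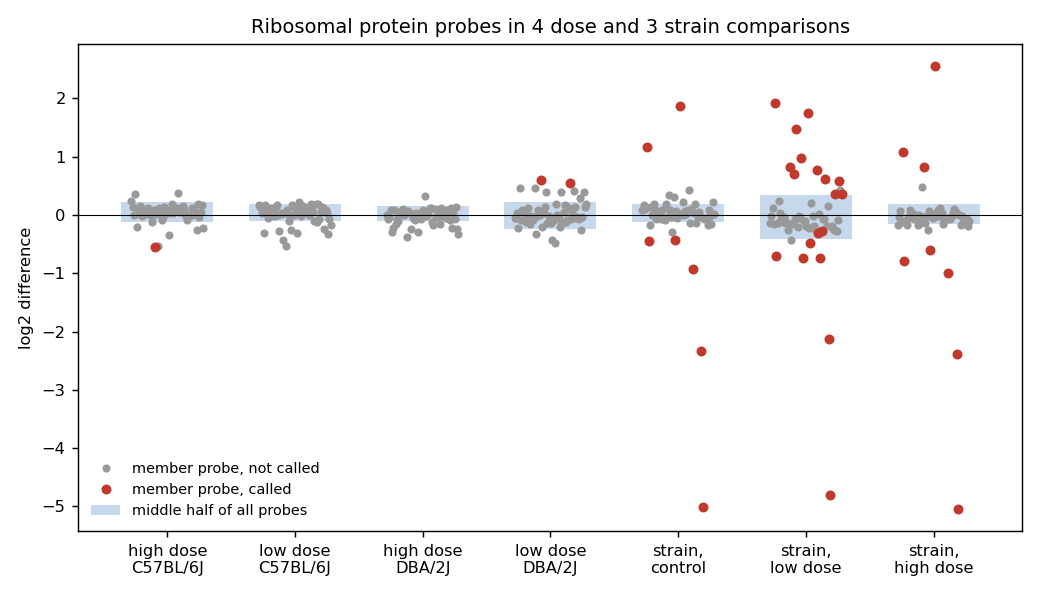
Points are the log2 differences of the 58 ribosomal protein probes in the 4 dose and 3 strain comparisons, red where called at an adjusted p under 0.05, and the blue band runs from the lower to the upper quartile of all 18423 probes. Most points lie inside or near the band, and the strain comparisons hold the probes farthest from 0.

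The low dose comparisons share their control pools with the high dose comparisons of the same strain. In C57BL/6J no ribosomal protein probe was called after the low dose: 0 of 58 rose and 0 fell (limma), where 0.608% of all probes rose and 2.74% fell. At an unadjusted p under 0.05, 0 were higher and 3 lower, where 1487 of all 18423 probes were higher and 1426 lower. The median difference was 0.05 over the 58 probes and 0.04 over all probes. The 3 lower ones were Rpl38 at -0.52 ± 0.17 (adjusted p = 0.111), Rplp2 at -0.42 ± 0.16 (adjusted p = 0.182) and Rps19 at -0.33 ± 0.15 (adjusted p = 0.289). The highest were Rpl22 at 0.23 and Rps16 at 0.19, with adjusted p of 0.494 and 0.330. Bright and dim members leaned opposite ways: 35 of 41 bright probes were above 0 and 3 of 17 dim ones. Of all bright probes 41.1% were below 0, and of all dim ones 57.9% were above it. The signs within a comparison come from the same pools, so they are not separate observations. The bright median per pool was 14.93, 14.92, 15.02 and 14.92 in controls and 15.08, 15.08, 15.02 and 14.9994 after the low dose, with overlap. The dim median was 8.41, 8.28, 8.22 and 8.43, then 8.39, 8.24, 8.30 and 8.28, also with overlap. The 95% interval lay between -0.5 and 0.5 in 39 of 41 bright members.

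In DBA/2J the low dose raised 2 of 58 probes, Rpl38 and Rps19bp1, and lowered 0 (limma), where 3.44% of all probes rose and 6.52% fell. At an unadjusted p under 0.05 there were 6 higher and 1 lower, where 2254 of all 18423 probes were higher and 2836 lower. The share called among ribosomal protein probes was thus close to the background for rises and below it for falls. Both calls were on dim probes.

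Rpl38 measured 10.70, 10.34, 10.74 and 10.60 in DBA/2J controls and 11.25, 10.93 and 11.42 in low dose pools. All low dose pools lay above all controls, and Rpl38 was 1.52-fold higher (0.61 ± 0.19 log2, adjusted p = 0.0440). Rps19bp1, a nucleolar protein that binds Rps19 and the deacetylase Sirt1, measured 8.73, 8.07, 8.58 and 8.29 in controls and 8.93, 9.04 and 8.93 in low dose pools. These groups also did not overlap, with a 1.47-fold rise (0.55 ± 0.15, adjusted p = 0.0232). When DBA/2J low dose pools 1 and 3 were left out together, neither was called, with 1 low dose pool left that was assumed to vary like the other groups: Rpl38 then differed by 0.34 (adjusted p = 0.663) and Rps19bp1 by 0.63 (adjusted p = 0.202).

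The members next in size did not pass. Rpl22, a large subunit protein that mouse T cell development depends on, measured 11.77, 12.13, 12.27 and 12.29 in controls and 11.26, 12.03 and 11.62 in low dose pools, a difference of -0.48 with an adjusted p of 0.0628. The dim Rpl28 probe was 0.47 higher (adjusted p = 0.0797), Rpl14 0.46 higher (0.0935), Rps19, a small subunit protein mutated in Diamond-Blackfan anaemia, 0.40 higher (0.114), and Rplp0, the base of the stalk, 0.29 higher (0.147). Rpl3l differed by -0.44 ± 0.32 (adjusted p = 0.390).

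Brightness and direction went together in the DBA/2J low dose comparison. Of the 41 bright members 30 were below 0 (73.2%), with a median of -0.05, where 58.8% of all bright probes were below 0 and their median was -0.07. Of the 17 dim members 15 were above 0 (88.2%), with a median of 0.29, where 51.7% of all dim probes were above 0 and their median was 0.01. The bright median per pool was 14.89, 14.91, 14.95 and 14.85 in DBA/2J controls and 14.86, 15.02 and 14.68 in low dose pools, which overlap. The dim median per pool was 8.26, 8.04, 8.39 and 8.09 in controls and 8.45, 8.68 and 8.50 in low dose pools, which do not. Granulocyte markers rose in the same pools in 16 of 16 probes (median 3.37 log2), B cell markers fell in 11 of 16 and T cell markers in 8 of 17, and 0 of 25 erythroid probes changed. The number of detected probes was also lowest there, 14233 to 14452 against 14630 to 16002 in the other groups. The part of these in the split by brightness was not tested.

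**Figure D3:**
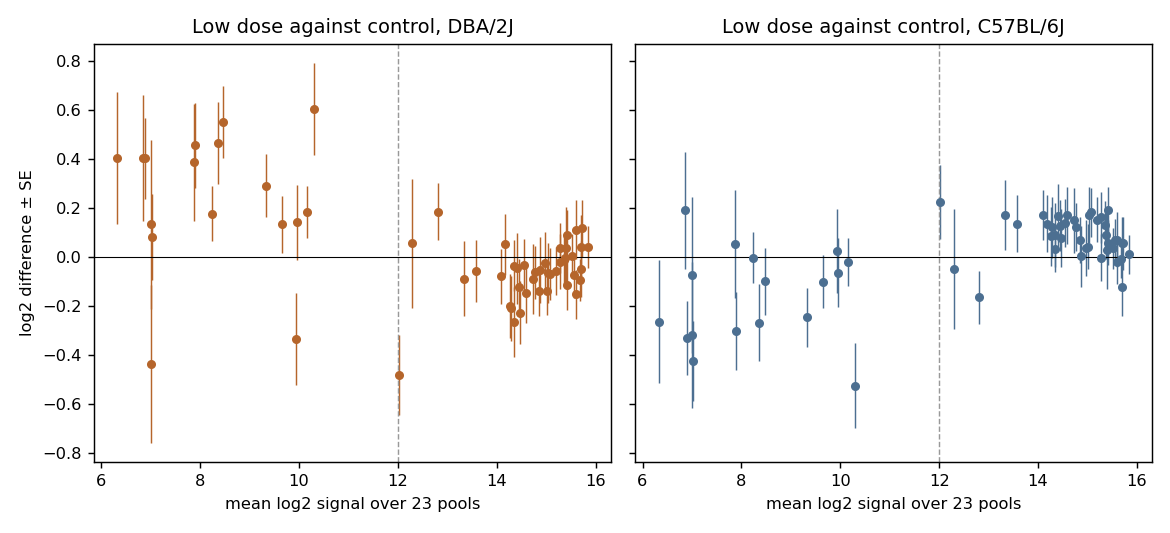
The x axis is the mean log2 signal of each of the 58 ribosomal protein probes over 23 pools and the y axis its low dose minus control log2 difference with its SE, for C57BL/6J and DBA/2J. The dashed line marks a mean of 12. In DBA/2J 15 of the 17 probes left of the line lie above 0, and in C57BL/6J 3 of the 17 do.

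The low dose differences of the 2 strains were set against each other by the interaction term of the same fit. The difference was higher in DBA/2J for 6 of 58 probes and lower for 1 (adjusted p under 0.05), where 9.09% of all probes were higher and 11.6% lower. Rpl38 led, at 1.13 ± 0.26 log2 (adjusted p = 0.00471). It was followed by Rpl14 at 0.76 (0.0274), the dim Rpl28 probe at 0.73 (0.0283), Rps19 at 0.73 (0.0243), Rps19bp1 at 0.65 (0.0267) and Rplp0 at 0.54 (0.0347), the adjusted p standing in brackets. Rpl22 was the 1 lower probe, at -0.71 ± 0.22 (0.0284). For the high dose the interaction called 0 of 58 in each direction, where 0.489% and 0.0489% of all probes were called. There 0 of 58 had an unadjusted p under 0.05, where 526 of all 18423 probes were higher and 286 lower.

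The pools are given for 4 of these calls. Rpl38 in C57BL/6J measured 10.06, 10.01, 10.33 and 10.61 in controls and 9.37, 9.62, 9.90 and 10.02 after the low dose, while in DBA/2J all 3 low dose pools lay above the controls. Rps19 in C57BL/6J measured 6.86, 7.05, 6.72 and 7.11 in controls and 6.81, 6.50, 6.59 and 6.52 after the low dose. In DBA/2J it measured 6.86, 6.72, 6.56 and 6.98, then 7.10, 7.07 and 7.39, so the low dose pools lay above all DBA/2J controls, and in C57BL/6J they overlapped with the controls at their top end.

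Rplp0 in C57BL/6J measured 9.50, 9.53, 9.44 and 9.54 in controls and 9.29, 9.33, 9.26 and 9.15 after the low dose, with no overlap. In DBA/2J it measured 9.52, 9.26, 9.39 and 9.16, then 9.70, 9.41 and 9.76, with overlap. Its detection p-value was under 0.05 in 2 of the 3 DBA/2J low dose pools and 3 of the 4 DBA/2J controls, although its signal was 624 to 1027. Rpl22 in C57BL/6J measured 11.73, 11.83, 12.12 and 11.88 in controls and 11.98, 12.01, 12.13 and 12.34 after the low dose, also with overlap. In the same interaction 22 of 25 erythroid and 16 of 16 granulocyte probes were higher in DBA/2J, and 13 of 16 B cell and 15 of 17 T cell probes lower. Leaving out DBA/2J low dose pools 1 and 3 left 1 pool in that group, which gives no spread of its own. The interaction was then 0.86 for Rpl38, 0.32 for Rplp0 and -0.31 for Rpl22, each nearer to 0 than with all pools. For the dim Rpl28 probe it was 1.10, farther from 0, and the other called probes kept their direction. How firm these sizes are was not tested.

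**Figure D4:**
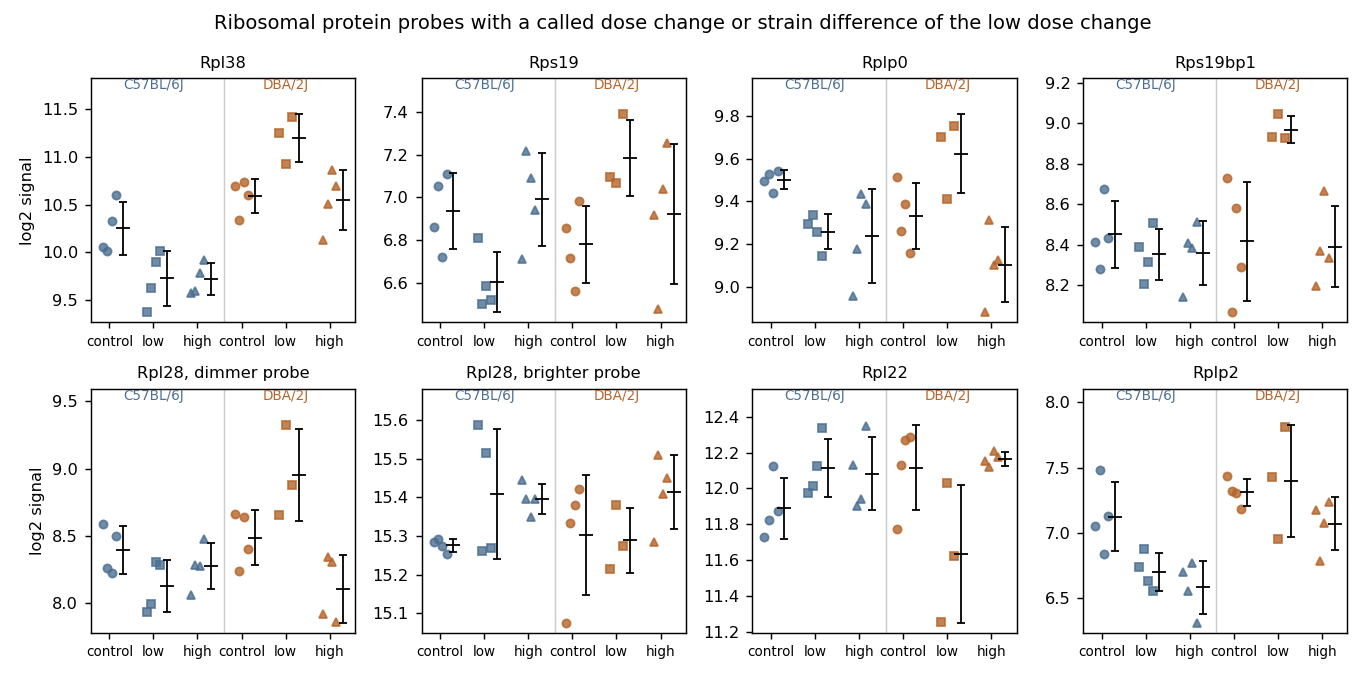
Log2 signals of 8 probes in each pool (points) by strain and dose, with the group mean and SD in black. Rpl38, Rps19, Rplp0, Rps19bp1 and the dim Rpl28 probe are higher in DBA/2J than in C57BL/6J low dose pools, Rpl22 is lower, and the bright Rpl28 probe stays between 15.1 and 15.6.

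Strain made the largest differences among ribosomal protein probes. Of the 58 probes, 2 were higher and 5 lower in DBA/2J than in C57BL/6J controls (limma), where 5.26% of all probes were higher and 6.62% lower. In high dose pools 3 were higher and 5 lower, where 6.35% and 6.88% of all probes were. In low dose pools 11 were higher and 8 lower, where 21.2% and 23.3% were. The 3 strain comparisons share no samples, but the spread of each probe was estimated in common over all 23 arrays. The 7 probes called in controls were called the same way in all 3, which is 36.8% of the low dose calls and 87.5% of the high dose calls. Over all probes 1169 were called the same way in all 3, which is 53.4% of the control calls, 14.3% of the low dose calls and 48.0% of the high dose calls.

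Rpl29, a large subunit protein also known to bind heparin, had the largest difference. Its log2 signals in C57BL/6J were 12.36, 12.17, 12.27 and 12.43 in controls, 12.27, 12.34, 12.21 and 12.16 after the low dose, and 12.43, 12.42, 12.35 and 12.53 after the high dose. In DBA/2J they were 7.60, 6.97, 7.06 and 7.58, then 7.30, 7.62 and 7.42, then 7.23, 7.13, 7.51 and 7.67. The strains were apart in every pool. Rpl29 was 32.1-fold lower in DBA/2J controls (log2 difference -5.00 ± 0.14, adjusted p = 4.61e-17), 27.8-fold lower after the low dose and 33.1-fold lower after the high dose. The probe stayed above background on all 23 arrays.

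Rps15a, a small subunit protein, lay near background in DBA/2J, so the size of its difference depends on the background. It measured 7.93, 8.28, 7.53 and 7.83 in C57BL/6J controls and 5.55, 6.24, 5.17 and 5.25 in DBA/2J controls, with no overlap and a fitted difference of -2.34 ± 0.24 (adjusted p = 1.58e-07). The differences after the low and the high dose were -2.12 and -2.39. The probe had a detection p-value under 0.05 in all C57BL/6J pools but in only 1 of 4 control, 2 of 3 low dose and 2 of 4 high dose pools of DBA/2J.

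Rpl21, a large subunit protein, was lower in DBA/2J by a smaller and steady amount. It measured 8.76, 8.57, 8.67 and 8.60 in C57BL/6J controls and 7.92, 7.69, 7.76 and 7.54 in DBA/2J controls, 1.89-fold lower with no overlap (-0.92 ± 0.10, adjusted p = 7.4e-07), and differed by -0.74 and -0.99 after the low and high dose. The 2 bright probes among the 7 were those for the small subunit proteins Rps3, which lies at the messenger RNA entry site, and Rps3a1. Rps3 measured 14.78, 14.82, 14.72 and 14.74 in C57BL/6J controls and 14.23, 14.34, 14.33 and 14.46 in DBA/2J controls (-0.42 ± 0.12, adjusted p = 0.0157). Rps3a1 measured 13.42, 13.66, 13.51 and 13.60 against 13.07, 12.78, 13.19 and 13.34 (-0.45 ± 0.14, adjusted p = 0.0406). Neither overlapped between control groups, and after the low and high dose the differences were -0.74 and -0.60 for Rps3 and -0.71 and -0.79 for Rps3a1.

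The 2 probes higher in DBA/2J were Rpl3l, the muscle paralogue of Rpl3, and Rpl14, a large subunit protein. Rpl3l measured 6.96, 6.29, 5.74 and 5.91 in C57BL/6J controls and 7.73, 8.28, 8.39 and 7.997 in DBA/2J controls, 3.67-fold higher with no overlap (1.88 ± 0.30, adjusted p = 8.51e-05). In DBA/2J low dose pools it spread widely, at 7.33, 8.68 and 6.99, and in high dose pools closely, at 8.42, 8.48, 8.38 and 8.45. The strain difference was 1.76 after the low dose and 2.55 after the high dose.

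Rpl14 measured 7.52, 7.60, 7.19 and 7.36 in C57BL/6J controls and 8.91, 8.04, 8.69 and 8.67 in DBA/2J controls, 2.23-fold higher with no overlap (1.16 ± 0.16, adjusted p = 1.37e-05). After the low dose C57BL/6J pools measured 6.90, 7.16, 7.21 and 7.20 and DBA/2J pools 9.20, 8.82 and 9.08, a difference of 1.92. After the high dose the difference was 1.07. Rpl14 and Rpl29, which differ in opposite directions, both lie on chromosome 9 by RefSeq.

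The size of these differences depends on the background for the dim probes, while all 5 of Rpl29, Rps15a, Rpl21, Rpl14 and Rpl3l kept their call and direction in each strain comparison under all 9 alternative settings. With the background taken from all rows or with the authors' log2 values the differences were smaller: over the 9 settings the control difference ran from -5.04 to -3.52 for Rpl29, from -2.42 to -0.29 for Rps15a, from -1.01 to -0.30 for Rpl21, from 0.34 to 1.20 for Rpl14 and from 0.30 to 2.12 for Rpl3l. The Rps3 and Rps3a1 calls in controls were lost with median scaling, and that of Rps3a1 also without a detection filter or without pancreas-bearing pools (highest adjusted p over the settings 0.124 for Rps3 and 0.0607 for Rps3a1). Whether a sequence difference between the strains lies under any of these probes was not tested.

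**Figure D5:**
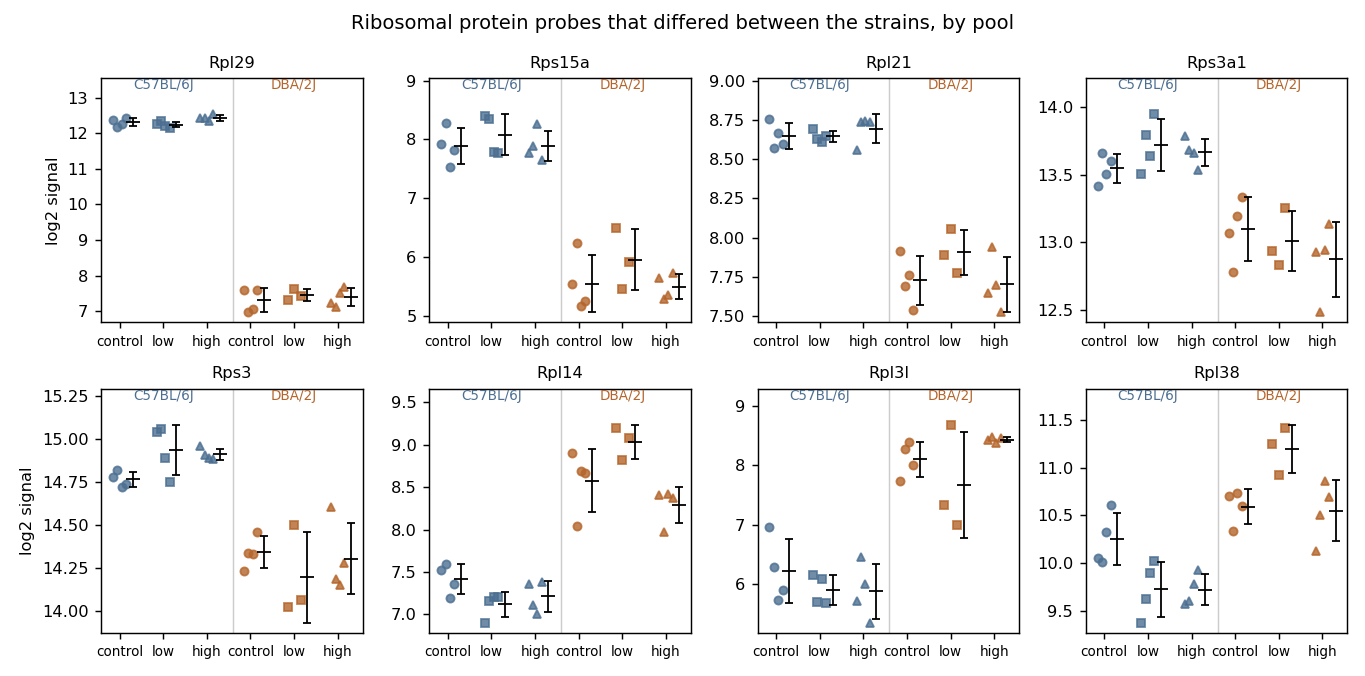
Log2 signals of 8 probes, the 7 called in all 3 strain comparisons and Rpl38, in each pool (points) by strain and dose, with the group mean and SD in black. Rpl29 lies between 12.2 and 12.5 in every C57BL/6J pool and between 6.97 and 7.67 in every DBA/2J pool.

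Rpl38 differed between strains in irradiated pools. It was 1.47 ± 0.19 higher in DBA/2J low dose pools (adjusted p = 2.79e-06) and 0.83 ± 0.17 higher in DBA/2J high dose pools (adjusted p = 0.00162), and 0.34 higher in controls, which did not pass (adjusted p = 0.272). High dose pools measured 9.58, 9.60, 9.78 and 9.92 in C57BL/6J and 10.13, 10.51, 10.87 and 10.70 in DBA/2J, with no overlap. The test of the difference between the strains' high dose changes did not pass for Rpl38 (0.49 ± 0.25, adjusted p = 1).

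In low dose pools the strains differed in 12 further probes. Besides Rpl38, those higher in DBA/2J were Rpl4 by 0.98, the dim Rpl28 probe by 0.83, Rpl22l1 by 0.77, Rplp2 by 0.70, Rps19bp1 by 0.61, Rps19 by 0.58, Rplp0 by 0.37 and Rpl13a, a large subunit protein known for translational silencing in inflammation, by 0.36, with adjusted p from 0.000499 to 0.0261. Those lower were Rpl22 at -0.48 (adjusted p = 0.0210), Rpl34 at -0.31 (0.0135) and Rps16 at -0.28 (0.0344). Rpl22 is known to repress Rpl22l1 in mice. Rpl22l1 measured 7.04, 8.24, 7.68 and 7.51 in C57BL/6J and 8.45, 8.20 and 8.50 in DBA/2J low dose pools, with overlap. Cell type and proliferation markers differed here too: 22 of 25 erythroid, 16 of 16 granulocyte and 18 of 19 proliferation probes were higher in DBA/2J, and 13 of 16 B cell and 14 of 17 T cell probes lower. Of 19 pancreatic probes 0 were called. The median differences of these 5 marker lists were 3.45, 4.53, 2.08, -1.13 and -1.61 in that order. Without DBA/2J low dose pools 1 and 3 they were 2.36, 4.31, 0.88, -0.28 and -0.70. The part of these markers in the 12 calls was not tested. With DBA/2J low dose pools 1 and 3 left out, 1 DBA/2J low dose pool remained, which gives no spread of its own, so sizes are given. Rpl38 then differed by 1.20, the dim Rpl28 probe by 1.20, Rps19bp1 by 0.69 and Rpl22l1 by 0.58. Rpl4 differed by 0.55, Rps19 by 0.46, Rpl13a by 0.37, Rplp2 by 0.25 and Rplp0 by 0.15. The lower ones shrank to -0.09 for Rpl22, -0.08 for Rpl34 and -0.10 for Rps16. Rps3, called in all 3 strain comparisons, then differed by -0.43, against -0.74 with all pools. How firm these sizes are was not tested.

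In irradiated pools most bright members lay lower in DBA/2J. Of 41, 35 were below 0 in the low dose strain comparison (85.4%, against 57.7% of all bright probes) and 32 in the high dose one (78.0%, against 50%), with medians of -0.13 and -0.05. In controls 18 were below 0. The signs of the 41 probes come from the same pools, so they are not separate observations. The bright median per low dose pool was 15.08, 15.08, 15.02 and 14.9994 in C57BL/6J. In DBA/2J low dose pools 1 to 3 it was 14.86, 15.02 and 14.68, so pool 2 lay within the C57BL/6J range. In high dose pools it ran from 14.96 to 15.08 in C57BL/6J and from 14.8998 to 15.01 in DBA/2J, also with overlap. After the low dose 5 of the 41 were called lower (12.2%, against 33.0% of all bright probes) and 1, Rpl13a, higher (2.44%, against 20.8%). After the high dose 2 were called lower (4.88%, against 47 of the 1119 bright probes) and 0 higher (against 6.08%). Over all 58 members the median strain difference was 0.01 in controls, -0.10 in low dose pools and -0.05 in high dose pools, against 0.04, 0.01 and 0.02 over all probes.

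The 39 probes called in none of the 9 comparisons were mostly bright: 35 had a mean of 12 or more. In order of mean signal, the genes with a bright uncalled probe were Rpl41, Rps29, Rpl13, Rps14, Rps9, Rps20, Rps21, Rpl35, Rpl36a, Rpl11, Rpl28, Rpl9, Rps18, Rps27, Rpl39, Rps28, Rpl30, Rpl8, Rpl7, Rpl10, Rpl37a, Rpl26, Rpl10a, Rpl5, Rpl27a, Rpl32, Rps15, Rpl35a, Rpl23, Rpl37 and Rpl36. The dim ones were Rpl7l1, Rps13, Rps24 and Rpl36al. Between the highest and the lowest of the 6 group means these 39 probes spanned 0.06 (Rpl41) to 0.44 (Rpl10a), with a median of 0.20 log2. Their differences in the 4 dose comparisons lay between -0.33 and 0.35. Nearest to a strain call in controls was Rps24, a small subunit protein, at -0.29 with an adjusted p of 0.0974.

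Genes with 2 tested probes gave a check of one probe by the other. For Rpl5 and Rpl10a both probes had the same sign in 7 of 7 comparisons, and the largest gap between their differences was 0.06 and 0.16 log2. For Rps9 and Rps20 the signs matched in 4 of 7, with gaps of up to 0.10 and 0.26. For Rpl28 they matched in 1 of 7: in low dose pools the dim probe was 0.83 higher in DBA/2J and the bright one differed by -0.12. In those pools the dim probe measured 7.93, 7.99, 8.30 and 8.28 in C57BL/6J and 8.65, 9.32 and 8.88 in DBA/2J, and the bright probe 15.59, 15.26, 15.52 and 15.27 against 15.21, 15.38 and 15.27. The calls on Rpl28 therefore rest on the dim probe alone.

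Other parts of the translation machinery were read beside the cytosolic ribosome. Among 71 mitochondrial ribosomal protein probes the DBA/2J low dose raised 12 and lowered 0, with a median difference of 0.29, where 3.44% of all probes rose. The median was also 0.29 over the 17 dim cytosolic members and was -0.05 over the 41 bright ones. The largest rises were Mrpl57 by 0.68, Mrps25 by 0.65 and Mrpl51 by 0.55. In C57BL/6J the low dose called 0, where 0.608% of all probes rose and 2.74% fell. The high dose there lowered 1, Mrpl21 (log2 difference -1.43, limma adjusted p = 0.0123), where 4.45% fell. Between strains 2 were higher and 6 lower in controls, led by Mrpl35 at -2.17, where 5.26% of all probes were higher and 6.62% lower. In low dose pools 34 were higher and 4 lower, where 21.2% and 23.3% of all probes were. The interaction of the low dose was higher in 24 of 71 and lower in 0, where 9.09% and 11.6% of all probes were. Without DBA/2J low dose pools 1 and 3, 1 pool remained in that group, which gives no spread of its own. Whether the calls hold cannot be told from it, and only sizes are given. The median was then 0.26 for the DBA/2J low dose, against 0.29 with all pools. It was 0.38 for the interaction, against 0.41, and 0.32 for the strains in low dose pools, against 0.33. In the DBA/2J low dose comparison with all pools, 16 of 16 granulocyte probes rose and 11 of 16 B cell and 8 of 17 T cell probes fell, and their part in these counts was not tested.

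Among 55 translation factor probes the low dose lowered 1 in C57BL/6J, where 2.74% of all probes fell. It raised 3 in DBA/2J, where 3.44% of all probes rose. Eif4ebp1, which blocks the cap-binding protein and is a target of mTOR, was the 1 lowered, at -0.66 (adjusted p = 0.00394), and was 0.70 higher in DBA/2J (adjusted p = 0.00408), with an interaction of 1.36 (adjusted p = 8.68e-05). The others raised in DBA/2J were Eif3j1 by 0.62 and Eif2b3 by 0.52. Without DBA/2J low dose pools 1 and 3 the median DBA/2J low dose difference of the 55 was -0.05, against 0.12 with all pools. The high dose in C57BL/6J lowered 2, Eif5 at -0.60 and Eif4ebp1 at -0.55, where 4.45% of all probes fell. Between controls 1 was higher, Eef2 by 0.52, and 6 lower, with the cap-binding protein Eif4e at -1.35. Over all probes 5.26% were higher and 6.62% lower there.

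Among 65 ribosome biogenesis probes the high dose in C57BL/6J lowered 3 and raised 0, where 4.45% of all probes fell and 3.34% rose. The 3 were Gnl3, a nucleolar GTP-binding protein, at -0.48, Gar1, a snoRNP protein, at -0.45, and Polr1b, a subunit of RNA polymerase I, at -0.38. The low dose in DBA/2J raised 1, Nhp2, by 0.51, and lowered 0, where 3.44% of all probes rose and 6.52% fell. Without DBA/2J low dose pools 1 and 3 the median of the list there was 0.07, against 0.16 with all pools. Between controls 4 were lower and 0 higher, where 6.62% of all probes were lower and 5.26% higher. Polr1b led, at -4.76 (limma adjusted p = 1.22e-18). These counts lay near or below the shares over all probes. In the same C57BL/6J high dose comparison 17 of 19 proliferation probes and 23 of 25 erythroid probes fell, and their part in the biogenesis calls was not tested.

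Fau and Rps27l, which the symbol rule leaves out, are related to the ribosome. Fau, whose product is processed into the small subunit protein Rps30, had group means of 15.18 to 15.51 and was called in none of the 9 comparisons. Rps27l, a p53-responsive paralogue of Rps27, measured 13.57 to 13.68 in C57BL/6J low dose pools against 13.91 to 14.12 in controls, a called fall of 0.39 log2 (log2 difference -0.39, adjusted p = 0.0351). In DBA/2J it measured 14.11 to 14.40 after the low dose against 13.81 to 14.04, a called rise of 0.37 (adjusted p = 0.0365). The interaction was 0.76 (adjusted p = 0.00205). Without DBA/2J low dose pools 1 and 3 the DBA/2J rise and the interaction were not called (0.22, adjusted p = 0.601, and 0.61, adjusted p = 0.0945). After the high dose Rps27l was called in neither strain: it averaged 14.02 in C57BL/6J (difference 0.02, adjusted p = 0.957) and 14.08 in DBA/2J (0.18, adjusted p = 0.481). Rps27 itself, a member, was called in none of the comparisons.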

How the data were processed

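Spleen RNA pools of 2 mice were measured on 23 one-colour Illumina arrays, grouped by the strain and treatment labels. Per the file headers the authors deposited 1 linear signal intensity per probe and array, not normalized, with a detection p-value for each. The authors' processed log2 values were made with lumi, per the submitters' processing notes, with no version given, and had array medians of 8.09 to 8.10. The scanner and its settings are not given in the sources used here.

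In R 4.3.3 with limma 3.58.1, intensities were corrected by normexp with an offset of 16, with the background inferred from detection p-values. Only the 27841 probes (80.7%) whose p-values were multiples of 1 over the number of negative controls on every array (1522 to 1540, tolerance 0.002) served for this, and the background means were 81.5 to 112. Signals were then quantile normalized and taken to log2. Probes with a detection p-value under 0.05 on at least 3 arrays were kept (18423 of 34492). Because normalization is by rank, a shift common to all transcripts could not be seen. The fit had 6 group means, eBayes and 9 contrasts, with Benjamini-Hochberg adjustment over all 18423 probes per contrast, and a probe was called at an adjusted p under 0.05. It was tested on simulated data.

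Symbols came from the platform annotation: 20256 probes have 1 symbol, 9 several and 14227 none. All 63 member probes matched RefSeq by Entrez ID, and 0 symbols changed. Named were called members, the 2 highest and 2 lowest per comparison, members fixed by name, and up to 3 called genes of other lists. Two-sided 95% intervals are limma's. The members and lists were chosen with earlier results of these data known. The number of arrays limits the precision. Alternatives were median scaling, cyclic loess, an offset of 50, the authors' log2 values, no detection filter, 1 probe per symbol, each pool left out, pancreas-bearing pools left out, and, added after seeing the data, background from all rows and DBA/2J low dose pools 1 and 3 left out.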

Additional observations from a re-analysis of the deposited data

Results flagged for a closer look

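In 5 of 120 groups of 4 pools, over 24 probes, 1 pool lay far from the other 3 by Dixon's test, where about 1 in 20 groups is flagged by chance. Rpl14 measured 6.90 in C57BL/6J low dose pool 1 against 7.16 to 7.21 in the others. Rpl14 also measured 7.97 in DBA/2J high dose pool 2 against 8.37 to 8.41. Rpl11 measured 15.26 in DBA/2J control pool 1 against 15.39 to 15.42, and Rpl26 measured 14.38 in the same pool against 14.55 to 14.58. Rpl21 measured 8.56 in C57BL/6J high dose pool 1, which carried pancreatic transcripts, against 8.74 to 8.75.

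The low dose change differed between the strains, by limma's interaction term, for 7 probes. It was higher in DBA/2J for Rpl38 (1.13), Rpl14 (0.76), the dim Rpl28 probe (0.73), Rps19 (0.73), Rps19bp1 (0.65) and Rplp0 (0.54), and lower for Rpl22 (-0.71), all on the log2 scale.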

How the results depend on the processing

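The number of called ribosomal protein probes moved in 6 of the 9 comparisons. In the C57BL/6J high dose comparison the 1 lower probe became 0 with median scaling, an offset of 50, the authors' log2 values, no detection filter, pancreas-bearing pools left out or background from all rows, and leaving out single pools gave 0 to 1 higher and 0 to 2 lower: 0 lower without C57BL/6J control 1, 2 or 4, high dose 1, 2 or 4 or low dose 1 or 3, or DBA/2J control 2, 3 or 4 or high dose 3, and 2 lower and 1 higher without DBA/2J low dose 2. In the DBA/2J low dose comparison the 2 higher became 0 with median scaling, 1 with no filter or without pancreas-bearing pools, and 4 with the authors' values (then 1 lower) or background from all rows. Single pools left out gave 0 to 4 higher and 0 to 3 lower: 0 higher without DBA/2J control 2 or 4 or low dose 1 or 3, 1 higher without C57BL/6J high dose 2 or 3 or DBA/2J control 3 or high dose 2 or 4, 4 higher without DBA/2J control 1 (then 1 lower) or low dose 2 (then 3 lower). With median scaling, which moved the median of all probes in that comparison by -0.11, the strain comparisons called 2 higher and 3 lower (not 5) in controls and 6 higher (not 11) and 7 lower in low dose pools, and the low dose interaction 1 higher (not 6) and 0 lower. The 1 lower probe of that interaction also became 0 without pancreas-bearing pools. Without DBA/2J low dose pools 1 and 3, chosen after seeing the data, the counts were 1 higher and 2 lower (C57BL/6J high dose), 0 higher (DBA/2J low dose), 5 higher and 4 lower (strain, low dose pools) and 1 higher and 0 lower (interaction), with the lone pool assumed to vary like other groups. Over single pools left out, strain calls ran from 4 to 6 lower with 2 higher in controls, 9 to 11 higher and 5 to 15 lower in low dose pools (5 without low dose 1 or 3, 15 without 2), 3 to 4 higher and 5 lower in high dose pools. Low dose interaction calls ran from 2 to 6 higher (2 without DBA/2J control 2 or low dose 3, 3 without C57BL/6J control 4, DBA/2J control 4 or low dose 1) and 0 to 4 lower (0 without C57BL/6J control 1 or 2 or low dose 4, or DBA/2J control 3 or 4 or low dose 1 or 3, and 4 without low dose 2). The high dose interaction and the C57BL/6J low dose and DBA/2J high dose comparisons stayed at 0 calls. No called value changed sign, and the cause of each move was not tested. Of single probes and medians, 4590 values were counted as the same, 133 lost a call, 20 gained one and 45 moved by more than the spread. The same meant a call kept in its direction or, for uncalled probes and for medians, a move smaller than the spread, whatever the sign. Some uncalled values near 0 changed sign. Rpl26 in the C57BL/6J high dose comparison was 0.05 with all pools and -0.03 without C57BL/6J high dose pool 2. Changes of dim probes near background are those least well measured. No paired analysis was possible because the labels give no replicate numbers shared between groups, and no chip is named, so a chip block was not run.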
